A study of Oryza sativa with 6 samples.

Results

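The 4 genes followed here are named for sodium handling and were measured in the roots of rice: SOS1 (Os12g0641100), SOS2, also called CIPK24 (Os06g0606000), SOS3, also called CBL4 (Os05g0534400), and NHX1 (Os07g0666900). They were taken by their rice gene IDs from a deposited table of 37938 loci, and all 4 were among the 19469 loci that held at least 10 reads in at least 2 libraries. The names belong to that choice of IDs, since the deposited files give IDs alone. NHX1 reached the minimum in the L-type and nodal libraries and not in the S-type ones.

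All plants were IR29, a rice cultivar the series calls salinity sensitive. Messenger RNA came from salt-grown L-type, S-type and nodal roots, held in 50 mM NaCl for 7 days, and from control L-type, S-type and nodal roots. Day and night temperatures were 30 °C and 25 °C, and the libraries kept strand information with an insert of 200 bp. Each of the 6 groups was 1 library, no label gives the number of plants behind it, and the labels name no transgene or mutant.

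Nodal roots are the shoot-borne axes of the rice root system, and the lateral roots that branch from them come as short, thin S-type roots and longer, thicker L-type roots. The SOS (salt overly sensitive) pathway, worked out in Arabidopsis, removes sodium from the cell. Calcium binds the sensor SOS3, SOS3 brings the kinase SOS2 to the plasma membrane, and SOS2 activates the sodium/proton antiporter SOS1. NHX1 is a sodium or potassium/proton exchanger of the vacuole membrane, which stores these ions inside the vacuole.

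Levels are given in 2 units. Scaled reads are whole reads recovered from the deposited signal and brought to a common library size with TMM factors, which correct for library makeup, and they serve to compare 1 gene between libraries. FPKM, as the authors deposited it, is per transcript length and serves to compare genes. An interval beside a value or ratio is a 95% interval of counting error only. With 1 library per group there is no spread between replicates, so a ratio of 2 libraries has no test. A locus counts as higher or lower between 2 libraries by a rule of size: log2(scaled reads + 1) differs by 2-fold or more, the higher library holds 50 scaled reads or more, and the interval of the ratio excludes 1. A limma model of root type plus treatment, without their interaction, was fitted to all 6 libraries and all 19469 loci. That interaction serves as its error term (2 residual degrees of freedom). limma also draws the variance of each locus toward a trend over all loci, which gives 5.76 degrees of freedom for the members. A call thus rests in part on variance borrowed from other loci. The p-values of the model, Benjamini-Hochberg adjusted over all loci with a threshold of 0.05, measure how evenly a difference repeats and not how plants vary. In bulk RNA of a root, fewer cells of a type and less RNA per cell cannot be told apart.

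The libraries held 3839177 to 4249872 reads, with 21368 to 24121 loci detected. TMM factors were 0.80 to 0.82 in the S-type libraries and 1.06 to 1.17 in the others. Scaling by library totals instead moves the median log2 difference of all loci between S-type and nodal roots to -0.45, against -0.04 with TMM, and where this turns a direction it is said beside the value. Of 8 root marker loci, 5 to 7 were detected in each library, and their summed scaled reads were 12019, 31512 and 11254 in salt L-type, S-type and nodal roots, against 7092, 17930 and 14535 in control L-type, S-type and nodal roots. Of these, 3 were at or near 0 in every library. In S-type roots the sum rested mainly on Os02g0745100 (13340 in salt and 7942 in control) and Os03g0107300 (18120 in salt and 9031 in control). Summed scaled reads of 12 green tissue loci (light harvesting and Rubisco) were 683, 19.3 and 1763 in salt L-type, S-type and nodal roots, against 107, 42.9 and 91.4 in the matching control roots. Between 7 and 11 of the 12 were detected in a library, and Os12g0291200 was at 0 in all 6. The part of green tissue loci in the salt ratios of L-type and nodal roots given below was not tested.

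Per transcript length, SOS1 was the most abundant of the 4 genes in every library, SOS2 stood next, and SOS3 and NHX1 were lower. SOS1 FPKM was 75.0, 90.8 and 53.2 in salt L-type, S-type and nodal roots, against 71.2, 106 and 46.7 in control L-type, S-type and nodal roots. Among the 19469 loci it stood between the 81.5 and the 89.9 percentile of FPKM in the 6 libraries. The antiporter thus stood high among these loci in every library.

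SOS2 FPKM was 32.8, 31.4 and 35.4 in salt L-type, S-type and nodal roots, against 34.3, 28.0 and 21.5 in control L-type, S-type and nodal roots. The FPKM ratio of SOS1 to its activating kinase ran between 1.5 in salt nodal roots and 3.80 in control S-type roots. SOS3 FPKM was 6.57, 6.55 and 1.38 in salt L-type, S-type and nodal roots, against 2.83, 10.1 and 5.41 in control L-type, S-type and nodal roots. The calcium sensor was below the kinase in all 6 libraries, and the FPKM ratio of SOS2 to SOS3 ran between 2.77 in control S-type roots and 25.6 in salt nodal roots.

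NHX1 FPKM was 1.57, 0.16 and 8.09 in salt L-type, S-type and nodal roots, against 2.92, 0.28 and 20.4 in control L-type, S-type and nodal roots. The vacuolar exchanger was nearly as abundant as SOS2 in control nodal roots and close to absent from S-type roots. The FPKM ratio of SOS1 to NHX1 was 47.9, 582 and 6.58 in salt L-type, S-type and nodal roots, against 24.4, 384 and 2.29 in control L-type, S-type and nodal roots, the S-type values resting on 1 and 2 NHX1 reads.

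**Figure D1:**
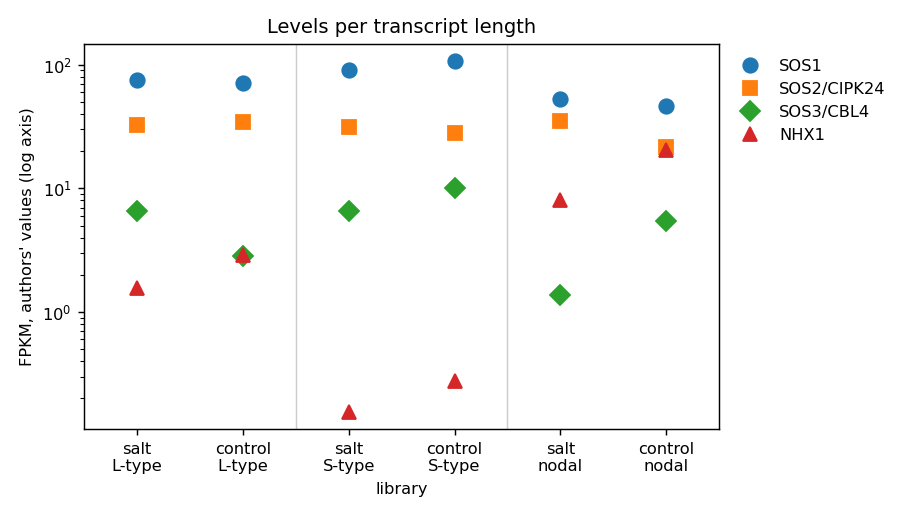
FPKM of the 4 genes as the authors deposited it, on a log axis, in each of the 6 libraries (1 point per gene and library, no replicates). SOS1 lies between 46.7 and 106 FPKM throughout, and NHX1 runs between 0.16 in salt S-type and 20.4 in control nodal roots.

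SOS1 moves sodium out of the cell across the plasma membrane. Its locus lies on chromosome 12 from 27495774 to 27508541 (IRGSP-1.0, coordinates of the deposited table). It had 877, 1145 and 704 scaled reads in salt L-type, S-type and nodal roots, against 961, 1420 and 555 scaled reads in control L-type, S-type and nodal roots. S-type roots were highest, L-type roots came next and nodal roots were lowest, under both treatments, with a range of 2.56-fold over the 6 libraries. In the order control S-type, salt S-type, control L-type, salt L-type, salt nodal, control nodal, each neighbour differed by more than counting error, the closest pair being the L-type libraries, with salt at 0.91 of control (0.83 to 0.997). The place of L-type against S-type roots depends on the scaling: in CPM, which uses library totals alone, SOS1 was at 239, 228 and 195 in salt L-type, S-type and nodal roots, against 280, 292 and 147 in control L-type, S-type and nodal roots.

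SOS2 is the kinase of the pathway. Its locus lies on chromosome 6 from 24038946 to 24044785. It had 237, 218 and 248 scaled reads in salt L-type, S-type and nodal roots, against 245, 203 and 141 scaled reads in control L-type, S-type and nodal roots. With TMM scaling the levels lay close together in 5 of the 6 libraries, and in control nodal roots the level was low. Of the neighbours in order of scaled reads, only control S-type and control nodal roots differed by more than counting error, with a ratio of 1.43 (1.15 to 1.79). The whole range of scaled reads was 1.76-fold, the narrowest of the 4 genes. This pattern depends on the scaling. In CPM, SOS2 was at 64.6, 43.4 and 68.8 in salt L-type, S-type and nodal roots. In control roots it was at 71.5, 41.6 and 37.4 in the same order, so both S-type libraries lay near control nodal roots.

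SOS3 is the calcium sensor. Its locus lies on chromosome 5 from 26535917 to 26537993. It had 24.9, 24.5 and 5.24 scaled reads in salt L-type, S-type and nodal roots, against 10.6, 39.3 and 18.6 scaled reads in control L-type, S-type and nodal roots. The underlying reads were 26, 19 and 6 in salt roots and 12, 33 and 21 in control roots, in the same order of root types. Control S-type roots were highest and salt nodal roots lowest, a range of 7.50-fold, but no neighbouring pair in the order of levels differed by more than counting error. The next locus, Os05g0534500, ends or begins 6 bp from it and had 23 reads in salt nodal and 45 in control nodal roots, and at most 1 in any other library.

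NHX1 loads the vacuole. Its locus lies on chromosome 7 from 28164423 to 28169307. It had 13.4, 1.29 and 67.2 scaled reads in salt L-type, S-type and nodal roots, against 24.7, 2.38 and 159 scaled reads in control L-type, S-type and nodal roots. These values rest on 14, 1 and 77 reads in salt roots, against 28, 2 and 179 reads in control roots. Nodal roots were highest, L-type roots were lower and S-type roots held 1 or 2 reads, a range of 123-fold. Salt and control nodal roots differed by more than counting error, as did each root type from the next, while the salt and control libraries of L-type roots and of S-type roots did not.

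**Figure D2:**
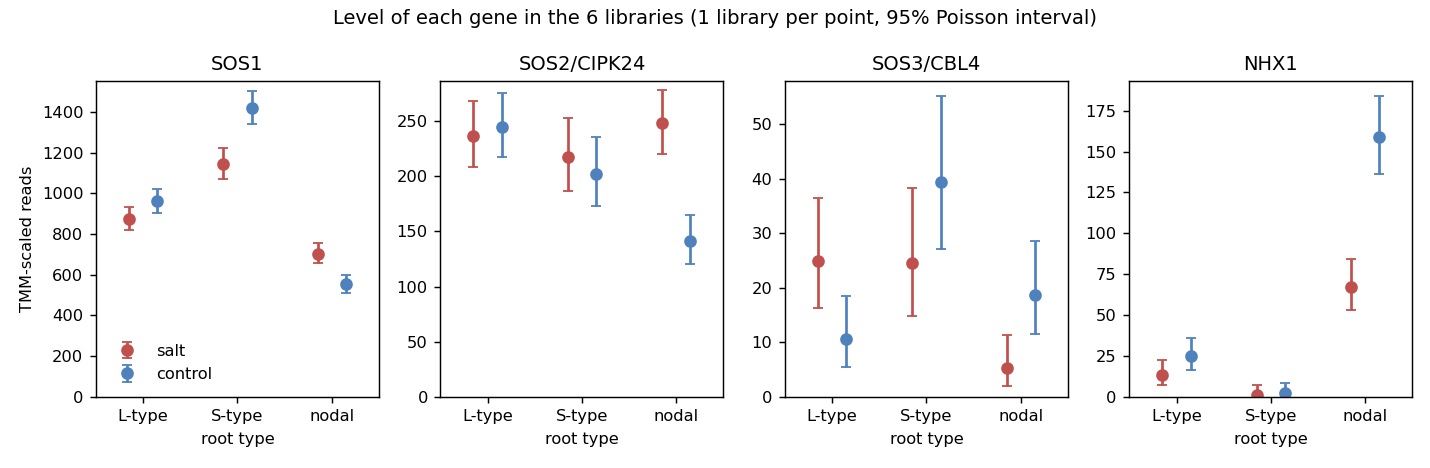
TMM-scaled reads of SOS1, SOS2/CIPK24, SOS3/CBL4 and NHX1 in the salt (red) and control (blue) library of each root type, with 95% Poisson intervals of counting error and a separate axis per gene. SOS1 is highest in S-type roots at 1145 and 1420 scaled reads, and NHX1 is highest in nodal roots at 67.2 and 159.

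Root types were compared first, because they set NHX1 and SOS1 apart most. NHX1 fell by 5.23 ± 0.62 in S-type against nodal roots (log2 of scaled reads + 1, SE, 95% interval -6.75 to -3.71, limma adjusted p = 0.00938), and was lower in S-type roots under both treatments. It was the 1 member of 4 past the threshold in this comparison, where 7.74% of all loci fell and 19.0% passed in either direction. The adjusted p was 0.0126 by edgeR and ranged between 1.68e-06 and 0.113 over 17 alternatives. The call was lost without the salt nodal library (adjusted p = 0.0838) and without the control nodal library (adjusted p = 0.113), with log2 differences of -5.57 and -4.97. Library against library, the S-type level of NHX1 lay 52.2-fold below the nodal level under salt (9.09 to 2086) and 66.7-fold below it under control (18.2 to 555), ratios that rest on 1 and 2 S-type reads. The root marker Os02g0662000 also stood low in S-type roots, at 1.29 scaled reads in salt and 230 in control, against 5524 in salt nodal and 11205 in control nodal roots, while the 8 root markers together were highest in S-type roots, and their part in the NHX1 result was not tested. Both NHX1 ratios met the rule of size, as 22.8% of the loci that could meet it did in that direction under salt (47.6% in either) and 19.6% under control (46.9% in either).

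L-type roots held an intermediate NHX1 level. In L-type roots it was 5.02-fold below nodal roots under salt (2.82 to 9.62) and 6.44-fold below them under control (4.31 to 9.96). Both ratios met the rule of size, which 10.5% of the loci that could meet it met in that direction under salt (22.4% in either) and 19.2% under control (37.0% in either). The limma estimate was -2.44 ± 0.62 (SE, limma adjusted p = 0.171), a difference that DESeq2 called (adjusted p = 0.0167) and limma did not. Without the salt or the control S-type library the limma estimate stayed at -2.44. Those fits have 1 residual degree of freedom and calls rose over all loci in them, so a call for NHX1 carries no weight there. L-type roots held 10.4-fold more NHX1 than S-type roots under salt (1.58 to 439) and 10.4-fold more under control (2.61 to 89.8). NHX1 cannot meet the rule of size there, since neither library has 50 scaled reads, and 0 of the 2 members that can meet it did, beside 34.3% of the loci that could under salt and 34.5% under control, in either direction. The limma estimate of L-type over S-type roots was 2.79 ± 0.62 (SE, limma adjusted p = 0.0958). DESeq2 called this difference (adjusted p = 0.0342). Without the salt or the control S-type library the limma estimate was 3.03 or 2.57, and the same limit holds for those fits.

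SOS1 ran the other way between root types. It was 1.63-fold higher in S-type than in nodal roots under salt (1.48 to 1.79) and 2.56-fold higher under control (2.32 to 2.82). The second ratio met the rule of size, as 27.3% of the loci that could meet it did in that direction, and no longer met it with library totals (log2 0.99). The limma estimate over treatments was 1.03 ± 0.33 (SE, 95% interval 0.22 to 1.83) with a limma adjusted p of 0.0784, so SOS1 did not pass, and it did not pass under any of 17 alternatives. Over nodal roots, L-type roots held 1.25-fold more SOS1 under salt (1.13 to 1.37) and 1.73-fold more under control (1.57 to 1.91), with a limma estimate of 0.55 ± 0.33 (SE, adjusted p = 0.456). Against S-type roots, L-type roots held 0.77 times as much SOS1 under salt (0.70 to 0.84) and 0.68 times as much under control (0.62 to 0.74), an order that library totals turn round under salt (log2 0.07) and reduce to -0.06 under control.

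SOS2 and SOS3 did not pass the limma threshold between any root types. The SOS2 estimates were 0.17 ± 0.35 for S-type over nodal (SE, adjusted p = 0.766, and -0.26 with library totals), 0.36 ± 0.35 for L-type over nodal (adjusted p = 0.651) and 0.20 ± 0.35 for L-type over S-type roots (adjusted p = 0.781). Under salt, SOS2 stood at 0.88 of the nodal level in S-type roots (0.72 to 1.07) and at 0.96 of it in L-type roots (0.80 to 1.14). Under control it was 1.43-fold above the nodal level in S-type roots (1.15 to 1.79) and 1.74-fold above it in L-type roots (1.42 to 2.12). With TMM scaling the salt ratios were thus within counting error of 1 and the control ratios were not. For S-type over nodal roots this contrast depends on the scaling, as library totals gave log2 -0.67 under salt and 0.15 under control. SOS3 was 4.68-fold higher in S-type than in nodal roots under salt (1.80 to 14.3) and 2.11-fold higher under control (1.18 to 3.84), with a limma estimate of 1.53 ± 0.84 (SE, adjusted p = 0.245) that was 0.49 without the salt nodal library and 2.47 without the control nodal library. Over nodal roots, L-type roots held 4.74-fold more SOS3 under salt (1.91 to 14.1), against a ratio of 0.57 under control (0.25 to 1.21), and L-type over S-type roots gave 1.01 under salt (0.54 to 1.94) and 0.27 under control (0.13 to 0.53). Its limma estimates were 0.64 ± 0.84 for L-type over nodal (SE, adjusted p = 0.745) and -0.89 ± 0.84 for L-type over S-type roots (adjusted p = 0.587). SOS3 never reached 50 scaled reads, so it cannot meet the rule of size in any pair.

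Over all 19469 loci, L-type against nodal roots gave 0 limma calls (0.0%, with 3201 at an unadjusted p under 0.05, 0 by edgeR and 964 by DESeq2), and L-type against S-type roots gave 2 (0.0103%, with 4256 at an unadjusted p under 0.05, 0 by edgeR and 1661 by DESeq2). The absence of members among the limma calls in these 2 comparisons therefore says little about the members.

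**Figure D3:**
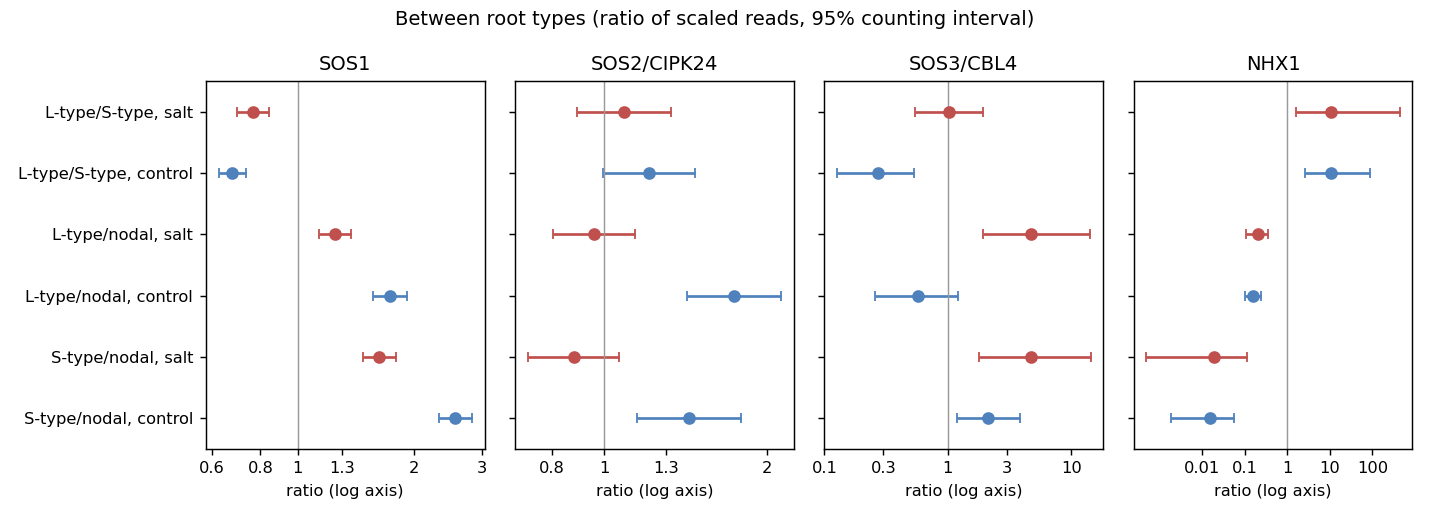
Ratios of scaled reads between root types for the 4 genes, under salt (red) and control (blue), each with its 95% counting interval on a log axis that differs between panels. NHX1 over nodal roots lies at 0.20 and 0.16 for L-type and at 0.02 and 0.01 for S-type roots, while SOS1 lies above 1 in the same 4 ratios.

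None of the 4 genes passed the threshold for salt over root types. In the limma fit of salt over control the estimates were -0.03 ± 0.27 for SOS1 (SE, adjusted p = 0.968), 0.29 ± 0.28 for SOS2 (adjusted p = 0.688), -0.39 ± 0.69 for SOS3 (adjusted p = 0.839) and -0.88 ± 0.50 for NHX1 (adjusted p = 0.494). None of the 4 was at an unadjusted p under 0.05. The background is as empty: limma and edgeR called 0 of 19469 loci (0.0%), 2501 loci had an unadjusted limma p under 0.05, and DESeq2 called 381, of which 181 were higher and 200 lower in salt. The 95% intervals were -0.69 to 0.62 for SOS1, -0.41 to 0.99 for SOS2, -2.08 to 1.31 for SOS3 and -2.12 to 0.37 for NHX1. With 1 library per group these bounds are not limits of detection, as limma called 0 loci at any size of change.

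In nodal roots, NHX1 was 2.36-fold lower in the salt library than in the control library (1.80 to 3.13). It was the 1 member to meet the rule of size there, of 3 that could (SOS3 could not), and of the 12885 loci that could meet it 11.9% were lower and 25.1% met it in either direction. SOS2 was 1.76-fold higher in the salt nodal library (1.44 to 2.15) and SOS1 1.27-fold higher (1.14 to 1.41), both short of 2-fold. SOS3 was 3.56-fold lower in the salt nodal library (1.39 to 10.8), on 6 reads in salt against 21 in control. In nodal roots under salt, the antiporter and its kinase were thus higher and the sensor and the vacuolar exchanger lower than in the 1 control library. The green tissue loci summed to 1763 scaled reads in salt nodal and 91.4 in control nodal roots.

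In S-type roots 0 of the 2 members that could meet the rule of size did, against 17.8% of the 12408 loci that could. SOS1 was 0.81 times its control level in the salt library (0.74 to 0.88), SOS2 stood at 1.08 (0.86 to 1.34), SOS3 at 0.62 (0.33 to 1.13) and NHX1 at 0.54 (0.01 to 10.4). Only SOS1 differed by more than counting error. The 2 members that could meet the rule were SOS1 and SOS2, since SOS3 and NHX1 did not reach 50 scaled reads in either S-type library.

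In L-type roots the members that could meet the rule of size were again SOS1 and SOS2, and 0 of these 2 did, against 28.1% of the 12928 loci that could. SOS1 was 0.91 times its control level in the salt library (0.83 to 0.997), but its deposited FPKM was higher in salt (75.0 against 71.2), so its direction depends on the scaling. SOS2 stood at 0.97 (0.81 to 1.15) and NHX1 at 0.54 (0.26 to 1.06). SOS3 was 2.35-fold higher in the salt library (1.14 to 5.11), on 26 reads in salt against 12 in control. The green tissue loci summed to 683 scaled reads in salt L-type and 107 in control L-type roots.

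**Figure D4:**
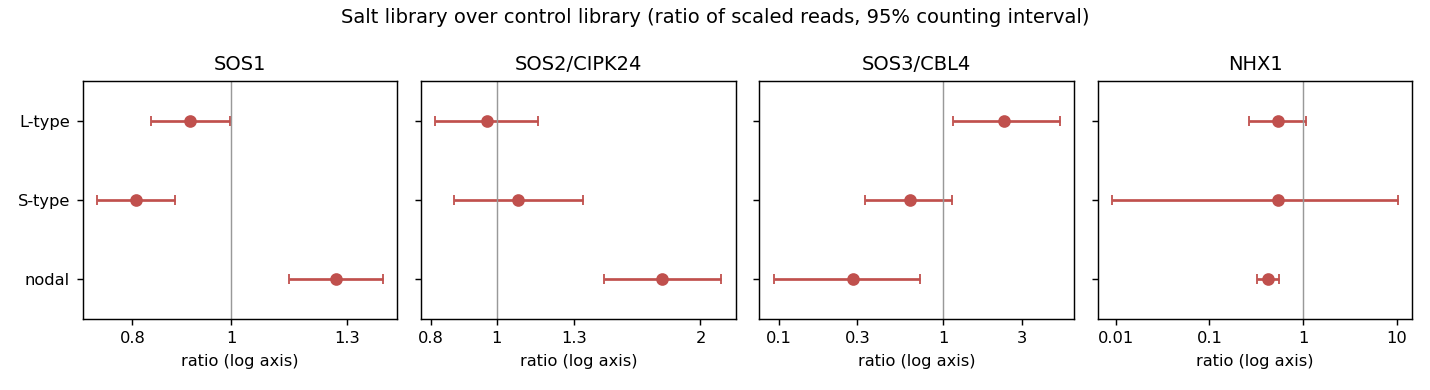
Ratio of the salt to the control library in each root type for the 4 genes, with 95% counting intervals on log axes that differ between panels. SOS1 and SOS2 lie above 1 in nodal roots (1.27 and 1.76), SOS3 lies at 2.35 in L-type and 0.28 in nodal roots, and NHX1 lies below 1 in all 3 root types.

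By counting error alone, the salt ratios differed between root types for SOS1, SOS2 and SOS3. The share of all loci that do so was not computed, so this is not a result about the members. For SOS1 the log2 salt ratio of S-type roots minus that of nodal roots was -0.65 (-0.85 to -0.46), and that of L-type minus nodal roots was -0.48 (-0.67 to -0.28). For SOS2 these differences were -0.71 (-1.12 to -0.29) and -0.86 (-1.23 to -0.49). Nodal roots were the root type in which both genes were higher in salt.

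For SOS3 the L-type ratio exceeded the nodal ratio by 3.06 on the log2 scale (1.42 to 4.70) and the S-type ratio by 1.91 (0.64 to 3.19). For NHX1 no difference of salt ratios between root types excluded 0, the widest being L-type minus S-type at 0.00 (-3.58 to 3.59) on the log2 scale. None of these differences has a replicate behind it, and none was tested.

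The authors' deposited table of pairwise comparisons holds 60 results for the 4 genes, of which 57 were tested and 0 were called significant there. The lowest q-value in the authors' deposited table was 0.906, for NHX1 in control L-type against control nodal roots, with a p-value of 0.0375. Among the pairs used here, the authors' deposited table left NHX1 in salt S-type roots untested against control S-type roots and against salt L-type roots.

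A further 4 loci (Os05g0148600, Os11g0648000, Os06g0318500 and Os09g0286400) were listed as NHX exchangers, a protein family found on vacuole and endosome membranes. This list and those that follow come from general knowledge and were not checked against an annotation. Of the 4, 3 passed the minimum of reads, and Os06g0318500 stood at 0.956 and 0.882 scaled reads in salt and control L-type roots and at 0 in the other libraries. NHX1 made up 1.68%, 0.12% and 9.89% of the summed FPKM of the 5 loci in salt L-type, S-type and nodal roots, against 2.48%, 0.29% and 21.4% in control L-type, S-type and nodal roots. Os09g0286400 made up the largest share in 5 of the 6 libraries (not in control nodal roots, where Os05g0148600 was marginally above it), with 52.6%, 65.4% and 38.9% in salt L-type, S-type and nodal roots, against 69.1%, 81.8% and 35.3% in control L-type, S-type and nodal roots.

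Os11g0648000 was the NHX locus with higher salt libraries in all 3 root types. It had 130, 175 and 121 scaled reads in salt L-type, S-type and nodal roots, against 63.5, 52.4 and 48.8 in the matching control roots. The ratios were 2.05 in L-type (1.53 to 2.76), 3.35 in S-type (2.37 to 4.81) and 2.49 in nodal roots (1.81 to 3.46), and all 3 met the rule of size, as 16.8%, 5.03% and 13.1% of the loci that could meet it did in that direction. In L-type roots the fold dropped below 2 with library totals (log2 0.93), median-of-ratios factors (log2 0.996) and the authors' scaling (log2 0.99), while the deposited FPKM was 29.5 in salt and 9.0 in control L-type roots, a wider gap. The limma estimate of salt over control was 1.35 ± 0.32 (SE), with a limma adjusted p of 0.359 and between 0.118 and 0.9995 over 17 alternatives, so it did not pass.

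Os09g0286400 rose in S-type against nodal roots (log2 1.37 ± 0.33, SE, limma adjusted p = 0.0411). It had 654 scaled reads in salt S-type and 637 in control S-type roots, against 248 in salt nodal and 251 in control nodal roots. The call held in 7 of 17 alternatives, the adjusted p ranging between 0.0278 and 0.245, and it was lost with library totals (0.103), edgeR (0.0592), FPKM (0.0619), no filter (0.0569) and root type as the only factor (0.0538), and without any 1 of the salt nodal (0.196), control nodal (0.245), salt S-type (0.125), salt L-type (0.0523) or control L-type (0.0603) libraries. Os05g0148600 had 98.0 scaled reads in salt S-type and 83.4 in control S-type roots, against 184 in salt nodal and 250 in control nodal roots (log2 -1.24 ± 0.40, SE, limma adjusted p = 0.0809). Its salt library was at 0.52 of control in L-type roots (0.41 to 0.65) and at 0.74 in nodal roots (0.61 to 0.88), and at 1.17 of control in S-type roots (0.84 to 1.65).

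**Figure D5:**
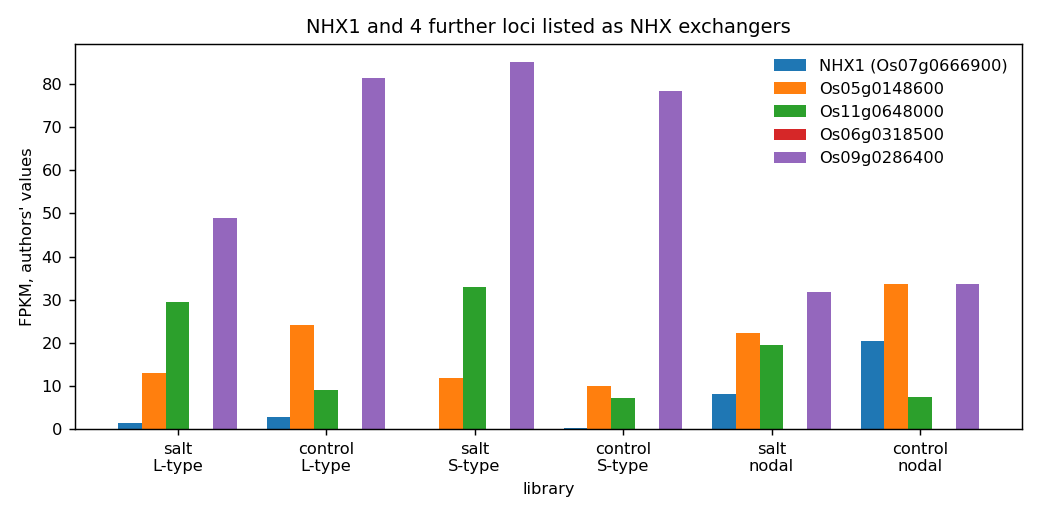
FPKM, as the authors deposited it, of NHX1 and 4 further loci listed as NHX exchangers in each of the 6 libraries, salt left of control for each root type. NHX1 is visible mainly in nodal roots at 8.09 and 20.4 FPKM, and Os11g0648000 is higher in the salt library of each root type.

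SOS2 and SOS3 belong to families of partners, the CIPK kinases and the CBL calcium sensors, in which sensors and kinases combine in many pairs. Of 25 further CIPK loci listed, 24 were in the files and 19 were tested. In the salt fit 0 of the 19 passed with limma (5 at an unadjusted p under 0.05), with a median log2 of 0.03 against -0.02 over all loci. As limma called 0 of all 19469 loci for salt, that count is not a result about them. By the rule of size, of 12 CIPK loci that could meet it, 5 were higher and 2 lower in salt in nodal roots. These counts were 1 and 4 in S-type roots, and 3 and 1 in L-type roots. Of all loci that could, 25.1%, 17.8% and 28.1% met it in either direction, and no set test was run. In S-type against nodal roots 4 rose and 2 fell, beside 11.3% and 7.74% of all loci, with a median log2 of 0.20 against -0.04 over all loci. One of those that fell, Os06g0543400, passed the minimum of reads only through the 2 nodal libraries, so the filter favoured that call and the count of lower loci carries no weight. Between L-type and nodal roots, and between L-type and S-type roots, 0 of 19 passed with limma, with 2 and 7 at an unadjusted p under 0.05.

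Os03g0339900 had 3569 scaled reads in salt nodal roots against 245 in control nodal roots, a ratio of 14.6 (12.9 to 16.5). Its S-type ratio was 1.42 (1.37 to 1.48), and its L-type libraries differed by less than counting error at 4961 in salt and 4964 in control. Os03g0634400 was 10.7-fold higher in salt than in control L-type roots (4.92 to 27.6), at 66.0 against 6.17 scaled reads, and 1.99-fold higher in S-type roots (1.57 to 2.54). It also rose in S-type against nodal roots (log2 3.73 ± 0.75, SE, limma adjusted p = 0.0271). Their limma estimates of salt over control were 1.46 ± 0.78 (SE, adjusted p = 0.468) and 1.64 ± 0.61 (SE, adjusted p = 0.377). Both loci were named for their large salt change, so their largest salt ratios follow from that pick.

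Of 9 further CBL loci listed, 8 were in the files and all 8 were tested. With limma 0 passed in the salt fit (0 at an unadjusted p under 0.05) and 0 in S-type against nodal roots (2 unadjusted, where 19.0% of all loci passed), with median log2 differences of -0.25 and -0.04, against -0.02 and -0.04 over all loci. Os03g0640000 had 169 scaled reads in salt L-type roots against 8.82 in control L-type roots, a ratio of 19.2 (10.2 to 40.7), and 10.3 in salt S-type against 56.0 in control S-type roots, a ratio of 0.18 (0.08 to 0.39). Its 2 lateral root types thus differed from control in opposite directions, each meeting the rule of size. The locus was named for its large salt change, so meeting the rule in L-type roots follows from that pick. Of the loci that could meet the rule, 16.8% were higher in L-type roots, and 17.8% met it in either direction in S-type roots. Os01g0711500, named for the same reason, had 38.4 scaled reads in salt nodal against 99.4 in control nodal roots, a ratio of 0.39 (0.27 to 0.55). It was at 0 in salt S-type roots against 31.0 in control S-type roots.

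In Arabidopsis, 14-3-3 proteins and GIGANTEA bind SOS2 and hold it inactive without salt. Of 8 rice loci listed as 14-3-3 proteins all 8 were tested and 0 passed with limma in the salt fit (1 at an unadjusted p under 0.05) or in S-type against nodal roots (3 unadjusted, where 19.0% of all loci passed), with medians of -0.24 and 0.03, against -0.02 and -0.04 over all loci. With so few loci, a count of 0 in these lists is not a result about them. Os04g0462500 had 3561 scaled reads in salt against 1226 in control L-type roots, a ratio of 2.91 (2.73 to 3.09), and its ratio was 1.32 in nodal roots (1.26 to 1.38) and, in the other direction, 0.73 in S-type roots (0.69 to 0.77). Os08g0430500 had 1151 scaled reads in salt against 2792 in control nodal roots, a ratio of 0.41 (0.39 to 0.44), and was also lower in salt in L-type (0.69) and S-type roots (0.62). Both 14-3-3 loci were named for their large salt change, so their largest salt ratios follow from that pick. The 1 locus listed as GIGANTEA, Os01g0182600, had 6241, 10571 and 4433 scaled reads in salt L-type, S-type and nodal roots, against 5135, 7025 and 2341 in control L-type, S-type and nodal roots. Its salt libraries were higher than their controls, by 1.22-fold in L-type, 1.5-fold in S-type and 1.89-fold in nodal roots. None of these ratios met the rule of size, and the limma estimate was 0.60 ± 0.39 (SE, adjusted p = 0.543).

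The loci whose pattern over the 6 libraries was most like that of a member were found by Pearson's r of log2(scaled reads + 1), among about 8670 loci that averaged 100 scaled reads or more. With 6 libraries that share root types and treatments, such an r is a description, and it ignores the size of a change. Os03g0762700 and Os04g0592600 were most like SOS1 (r = 0.993 each), and 158 loci had an r above 0.95 with it. Os06g0229300 (r = 0.991) and Os11g0139700 (r = 0.984) were most like SOS2, with 33 such loci, and both shared its low value in control nodal roots.

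Os01g0121800 (r = 0.981) and Os04g0401700 (r = 0.972) were most like SOS3, with 8 such loci. Os08g0300200 (r = 0.996) and Os07g0184300 (r = 0.994) were most like NHX1, with 109 such loci. Their scaled reads ran from 213 to 418 and from 290 to 872, so neither was close to absent from S-type roots. Among the members, NHX1 and SOS1 had r = -0.94, with NHX1 highest and SOS1 lowest in nodal roots, and SOS1 and its kinase SOS2 had r = 0.42.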

How the data were processed

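Messenger RNA of 6 rice root libraries was analysed, 1 per group. The submitters' processing notes name build IRGSP-1.0 and the tools Cuffdiff 2.2.1, Cufflinks 2.2.1, TopHat2 2.0.11, Bowtie and Trimmomatic 0.32. A signal for each locus in each library was deposited by the authors, as well as FPKM with p-values and q-values for 15 comparisons, in the layout of Cuffdiff per the file headers. The deposited log2 fold column and 24 per-sample columns were not used. Whole reads were recovered from the signal and the size of 1 read in each library: 99.897% to 99.977% of nonzero values came out whole (tolerance 0.01). These reads carry no molecular identifiers, so intervals (Clopper-Pearson or Poisson) cover counting error only. The 828 loci without a gene ID took no more than 0.576% of the reads of any library and stayed in the scaling.

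Since the deposited unit is a signal and not raw counts, the main test was limma-trend (limma 3.58.1 under R 4.3.3) of log2(scaled reads + 1), as planned for that case, two-sided, over 19469 loci. This scale understates changes of low loci. The count test, edgeR 4.0.16 on recovered reads, called 0 loci for salt and 2576 for S-type over nodal roots, and DESeq2 1.42.0 was also run. The scripts were tested on simulated data. Alternatives were 3 other scalings, FPKM (log2(FPKM + 0.1) in the fits), pseudocounts, filters, 1 factor alone, other sizes for the rule and leaving out each library.

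The members and lists were chosen with earlier results of these data known. The rule for names took all members and NHX loci, the 2 loci of each other list with the largest salt change at 50 scaled reads or more, and the 2 loci most like each member. The GIGANTEA locus, alone in its list, was named outside that rule. Only 1 of 36773 gene IDs, and 0 members, had a match in the ASM3414082v1 reference table, and loci are therefore named by ID. Members of gene families are uncertain, because no source used here says how reads that match several near-identical copies were counted. No annotated locus in the table overlaps a member.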

Additional observations from a re-analysis of the deposited data

Results flagged for a closer look

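SOS1 was higher in the salt library than in the control library in nodal roots, at a ratio of 1.27, and lower in S-type roots at 0.81 and in L-type roots at 0.91. The opposite directions drew attention to it, and with 1 library per group the difference between root types was not tested. By deposited FPKM the L-type direction is turned round.

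SOS3 was higher in the salt library in L-type roots, at a ratio of 2.35, and lower in nodal roots at 0.28. The directions were opposite, the nodal value rests on 6 salt reads, and the difference between root types was not tested.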

How the results depend on the processing

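Of the 16 member estimates from the fit (4 genes, 4 contrasts), NHX1 in S-type over nodal roots kept its call in all 11 alternatives that used all 6 libraries, at -6.00 with DESeq2 to -4.00 with a pseudocount of 5, and ranged from -5.57 to -4.97 when 1 library was left out, with the call lost without either nodal library. When 1 library was left out, NHX1 ranged from -2.77 to -2.19 in L-type over nodal and from 2.57 to 3.03 in L-type over S-type roots. Both were called without 1 or the other S-type library, but calls rose over all loci there as well. DESeq2 gave these estimates as -2.59 and 3.41 with a call. A pseudocount of 5 gave 1.78 for L-type over S-type roots without a call. SOS3 in S-type over nodal roots ranged from 0.49 to 2.47 without 1 library. The direction turned round for uncalled estimates. For salt over control, SOS1 was 0.012 with FPKM and ranged from -0.26 to 0.11 without 1 library, SOS2 from -0.013 to 0.45 and SOS3 from -1.17 to 0.25. For S-type over nodal roots, SOS2 was -0.26 with library totals and ranged from -0.24 to 0.46 without 1 library. For L-type over nodal roots, SOS2 ranged from -0.043 to 0.69 and SOS3 from -0.54 to 1.71. For L-type over S-type roots, SOS1 was 0.0050 with library totals, SOS2 ranged from -0.046 to 0.53 and SOS3 from -1.97 to 0.28 without 1 library. Log2 ratios of 2 libraries moved beyond counting error as follows. With FPKM, SOS1 was 0.19 for salt in nodal roots, 0.075 for salt in L-type roots, 0.49 and 0.61 for L-type over nodal roots in salt and control, and 1.19 for S-type over nodal roots in control. With library totals, S-type over nodal roots gave 0.22 (SOS1) and -0.67 (SOS2) in salt and 0.99 and 0.15 in control, and L-type over S-type roots gave 0.069 (SOS1) and 0.57 (SOS2) in salt and -0.059 and 0.78 in control. SOS1 in S-type over nodal control roots was 1.20 with median-of-ratios factors and 1.21 with the authors' scaling. The count of members meeting the rule of size moved with its minimum, in nodal roots under salt from 1 to 2 at 10 scaled reads and to 0 at 200 or at 4-fold. Over all loci, S-type over nodal roots gave 3705 calls, of which 59.4% were higher, against 4434 with library totals, of which 38.4% were higher, 67.6% of 2576 with edgeR, and 389 to 5682 without 1 library. Leaving out 1 library gave 0 to 987 calls for salt, 0 to 1877 for L-type over nodal and 0 to 2924 for L-type over S-type roots, where DESeq2 gave 381, 964 and 1661 and a pseudocount of 5 gave 474 for the last. The cause of these moves was not tested. Scalings of the named pathway loci were added after seeing the data. No paired analysis was possible because the labels give 1 library per group and no replicate numbers that pair libraries. With a minimum of 50 reads SOS3 was not among the loci tested and has no value. Depth limits SOS3 and NHX1 most, at 6 to 33 and 1 to 179 reads per library.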

Other observations

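The 6 CIPK loci past the limma threshold in S-type against nodal roots can be given one by one, a choice made after their values were seen. The 4 that rose were Os07g0678600, Os03g0126800, Os07g0678300 and Os03g0634400. Os03g0126800 had 4585 scaled reads in salt S-type and 1990 in control S-type roots, against 114 in salt nodal and 170 in control nodal roots (log2 4.43, limma adjusted p = 0.0135). Os07g0678300 had 1083 scaled reads in salt S-type and 847 in control S-type roots, against 18.3 in salt nodal and 79.0 in control nodal roots (log2 4.61, limma adjusted p = 0.0198). Os07g0678600 had 2629 scaled reads in salt S-type and 1750 in control S-type roots, against 459 in salt nodal and 912 in control nodal roots (log2 1.73, limma adjusted p = 0.0485). These 3 kinases were picked by that call, so their S-type libraries lying above their nodal libraries is no further support for it.

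Of the 2 that fell, Os05g0332300 was at 0 in salt S-type and at 17.9 scaled reads in control S-type roots, against 85.6 in salt nodal and 195 in control nodal roots (limma adjusted p = 0.0244). Os06g0543400 was at 0 in both S-type libraries, against 11.4 scaled reads in salt nodal and 22.2 in control nodal roots and 8.60 and 1.76 in salt and control L-type roots. It entered the fit only through the nodal libraries, where it is highest, so its call is no support for a difference. SOS2, the member of the same family, stood at 218 scaled reads in salt S-type and 203 in control S-type roots, against 248 in salt nodal and 141 in control nodal roots.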
